A study of Homo sapiens with 4 samples.

Results

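The BCL2 family genes are described here in A549, an established human lung carcinoma cell line, as 10 genes taken by exact symbol from 42113 gene models: the effectors BAX and BAK1, the BH3-only genes BBC3, PMAIP1, BID, BIK, BAD and BCL2L11, and the prosurvival genes BCL2L1 and MCL1. RNA sequencing libraries were made from 4 populations, 1 library each. Every population had been stably infected with a lentivirus, carrying either a negative control shRNA or an shRNA against LIMA1, a gene for an actin-binding protein also called EPLIN. Each line was either left without drug or given nutlin-3a at 10 µM, and total RNA was taken after 24 h. Nutlin-3a keeps MDM2 from binding p53 and so stabilises p53, and the question stated for the series was how LIMA1 knockdown alters the genes that p53 switches on. The number of hairpins and whether a line was a clone or a pool are not given in the sources used here, so a lasting difference between the lines and an effect of the shRNA cannot be told apart.

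Proteins of the BCL2 family decide whether the mitochondrial outer membrane is opened in apoptosis. BAX and BAK form the pores that let cytochrome c out, prosurvival members such as BCL-XL (from BCL2L1) and MCL-1 hold them and the BH3-only proteins back, and BH3-only proteins either neutralise the prosurvival members or activate BAX and BAK directly. PUMA (from BBC3), NOXA (from PMAIP1) and BAX are textbook p53 targets, while much of the control of BAD, BID and MCL-1 is known to lie at the level of the protein, which RNA levels do not show.

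Values are deposited normalized counts, that is, fragments divided by a factor for each library and not by gene length. Genes with a mean of at least 30 across libraries count as measured, which left 12742 genes and 9 of the 10 members. Differences are between log2(normalized count + 1) values, called higher or lower from a size of 1; this scale understates changes of low genes. With 1 library per group there is no replicate, so none of these single differences was tested and each compares libraries; 1 fit over all 4 libraries is given after the counts of members. Brackets give 95% intervals from fragment counts, which cover counting error only. The libraries held 15.2 to 16.7 M fragments. As a check of the labels, the LIMA1 shRNA libraries were low in LIMA1, with 68.3 normalized counts where the untreated control shRNA library had 416, and 133 where the nutlin-3a control shRNA library had 866. Of the marker lists, all 7 epithelial genes were measured, none of the 5 lung alveolar genes was (SFTPB and SFTPA1 were at 0 in all 4 libraries), and the leukocyte, endothelial and fibroblast lists summed to at most 132, 12.9 and 135 normalized counts, against at least 149064 for the epithelial list. The fibroblast sum was highest in untreated control shRNA cells and lowest, at 31.1, in nutlin-3a LIMA1 shRNA cells; its part in the results below was not tested.

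The promoter windows of the 4 members that reached the size for a call in any comparison are shown because these genes carry the results below. They are RefSeq windows of 300 bases on GRCh38.p14, a later build than the hg19 named for the files, running from 250 bases before to 50 after the gene start, and 8 of the 10 members had one or more; BIK and MCL1 had no entry. Capitals mark CACGTG (the E-box palindrome) in BBC3 and BAX, the p53 decamer in BAK1, and TGACG (the core of the ATF/CREB site, here on the reverse strand) in PMAIP1. The windows are chr19:47232618-47232917 on the minus strand for BBC3, chr19:48954625-48954924 on the plus strand for BAX, chr6:33580227-33580526 on the minus strand for BAK1 and chr18:59899746-59900045 on the plus strand for PMAIP1.
BBC3: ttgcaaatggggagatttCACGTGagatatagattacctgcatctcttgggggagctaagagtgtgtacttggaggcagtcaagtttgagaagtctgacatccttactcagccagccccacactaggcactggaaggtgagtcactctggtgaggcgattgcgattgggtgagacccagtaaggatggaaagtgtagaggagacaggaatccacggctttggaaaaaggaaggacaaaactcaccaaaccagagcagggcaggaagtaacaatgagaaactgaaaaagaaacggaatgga
BAX: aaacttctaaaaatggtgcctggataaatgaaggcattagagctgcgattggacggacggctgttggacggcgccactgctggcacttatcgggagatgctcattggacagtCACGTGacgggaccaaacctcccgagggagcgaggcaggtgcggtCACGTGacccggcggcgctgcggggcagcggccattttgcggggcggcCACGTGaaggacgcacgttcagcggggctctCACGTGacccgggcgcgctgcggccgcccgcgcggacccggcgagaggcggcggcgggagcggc
BAK1: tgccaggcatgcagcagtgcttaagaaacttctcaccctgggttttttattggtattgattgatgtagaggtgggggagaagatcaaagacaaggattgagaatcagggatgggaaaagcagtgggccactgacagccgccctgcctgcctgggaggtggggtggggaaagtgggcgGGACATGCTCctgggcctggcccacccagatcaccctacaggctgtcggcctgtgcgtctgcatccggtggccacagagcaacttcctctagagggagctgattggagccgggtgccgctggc
PMAIP1: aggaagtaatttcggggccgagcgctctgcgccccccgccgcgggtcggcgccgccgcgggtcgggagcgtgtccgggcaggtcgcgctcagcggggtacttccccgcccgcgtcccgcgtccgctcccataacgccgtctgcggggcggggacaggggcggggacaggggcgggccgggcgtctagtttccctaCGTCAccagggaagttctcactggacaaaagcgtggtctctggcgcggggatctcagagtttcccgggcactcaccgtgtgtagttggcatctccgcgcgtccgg

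The BAX window held 4 copies of CACGTG, starting 138, 93, 45 and 14 bases before the gene start; of 35116 windows of this length, 7.26% held at least 1 copy and 5 held 4 or more. BBC3 held 1 copy, 232 bases before its start, and 2 of the 5 BID windows also held 1. The p53 decamer, searched on both strands as an exact match to RRRCWWGYYY (R for A or G, W for A or T, Y for C or T), was in 6.63% of all windows. Among the member windows it was only in that of BAK1, 73 bases before the start. No second decamer beside it was required, and copies with a mismatch or outside the windows were not counted. TGACG, also searched on both strands, was in 24.6% of windows; PMAIP1 had it at 55 bases before the start, both BAD windows and 1 of the 2 BCL2L1 windows had it, and in BAX it overlapped the first CACGTG. TGATGNAA, a core of the C/EBP-ATF element, was in 3.62% of all windows and in none of the 14 member windows. These are letter matches within the windows only.

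The effector genes were both higher with nutlin-3a in both lines. BAX stood at 1272 normalized counts in untreated control shRNA cells, 1416 in untreated LIMA1 shRNA cells, 4269 in nutlin-3a control shRNA cells and 3889 in nutlin-3a LIMA1 shRNA cells. The drug-treated libraries lay far above the untreated ones, 3.36-fold with control shRNA (3.16 to 3.57) and 2.75-fold with LIMA1 shRNA (2.58 to 2.92). On the log2 scale these were differences of 1.75 and 1.46, which placed BAX 255th and 471st from the top of the 12742 genes. In bulk RNA, fewer cells of a kind and less RNA per cell cannot be told apart, and this holds for every value here.

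The lines differed little at BAX, and in opposite directions by treatment. It was higher with LIMA1 shRNA by 0.16 in untreated cells (0.05 to 0.26) and lower, at -0.13 (-0.20 to -0.07), with nutlin-3a. The response was therefore smaller in LIMA1 shRNA cells, by -0.29 (-0.41 to -0.17, an approximate counting interval over 4 libraries).

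BAK1, whose protein sits in the outer membrane of mitochondria already in healthy cells, had smaller differences than BAX. Its values were 284 and 240.5 normalized counts in untreated control and LIMA1 shRNA cells, and 493 and 564 with nutlin-3a. It was 1.74-fold higher with nutlin-3a in control shRNA cells (1.504 to 2.01; log2 difference 0.80, under the size for a call) and 2.35-fold higher in LIMA1 shRNA cells (2.01 to 2.74; 1.23). In contrast to BAX, its response was larger in LIMA1 shRNA cells, by 0.43 (0.13 to 0.73). The ratio of BAX to BAK1 normalized counts, which is not corrected for length and is read only between libraries, was 4.48 and 5.89 in untreated control and LIMA1 shRNA cells and 8.65 and 6.90 with nutlin-3a.

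**Figure D1:**
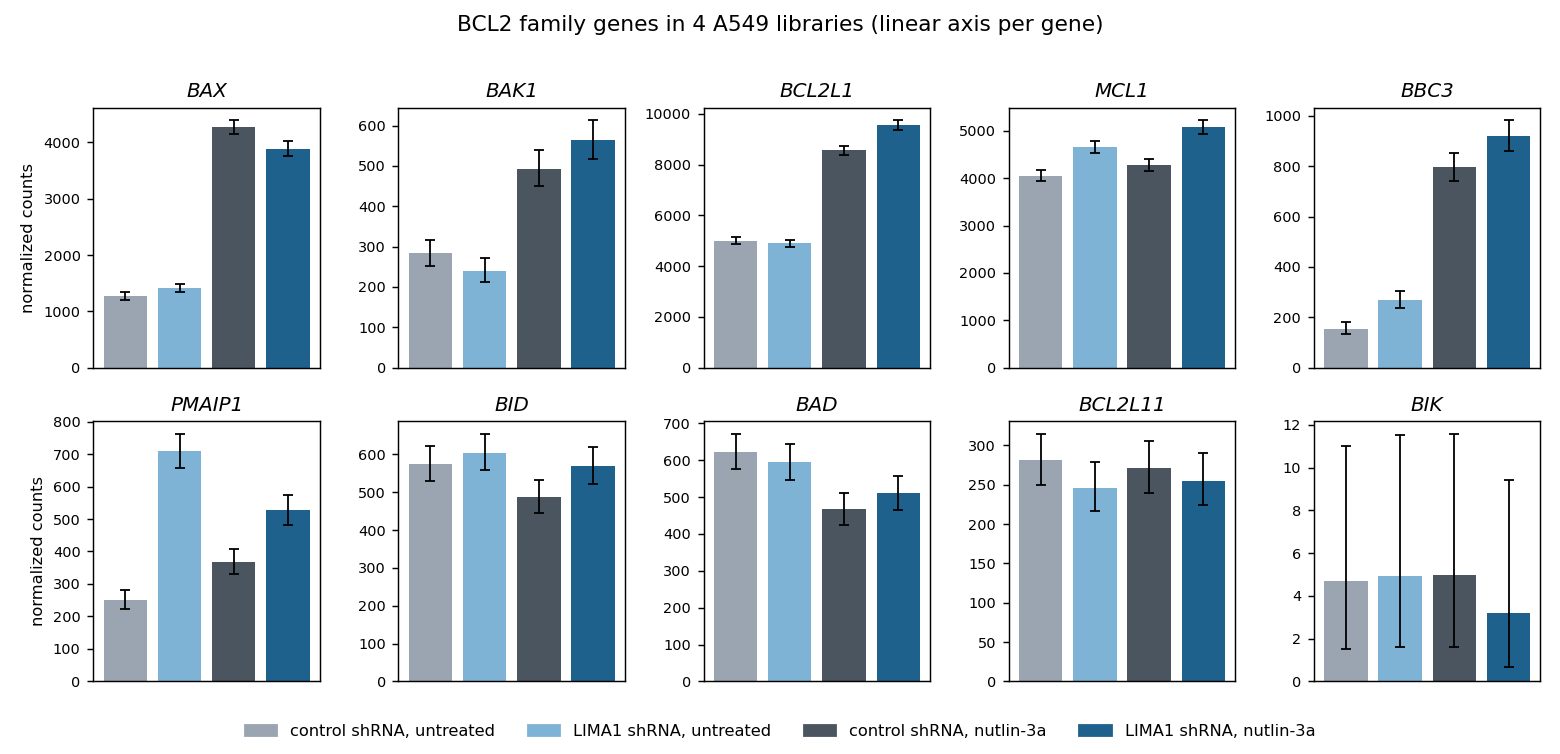
Normalized counts (linear axis, own scale for each gene, starting at 0) of the 10 BCL2 family genes in the 4 A549 libraries; bars are single libraries and error bars are exact Poisson 95% intervals of the fragment count, which cover counting error only. BAX, BAK1, BBC3 and BCL2L1 stand higher in both nutlin-3a libraries than in both untreated ones, whereas PMAIP1 is highest in untreated LIMA1 shRNA cells, at 708.

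BBC3, which encodes PUMA, a BH3-only protein that binds all prosurvival members, had the largest nutlin-3a difference of the 9 measured genes in each line. Its normalized counts were 155 in untreated control shRNA cells, 269 in untreated LIMA1 shRNA cells, 795 in nutlin-3a control shRNA cells and 919.8 in nutlin-3a LIMA1 shRNA cells. The nutlin-3a library was 5.14-fold higher in control shRNA cells (4.34 to 6.12; log2 difference 2.36, 141st of 12742) and 3.42-fold higher in LIMA1 shRNA cells (2.98 to 3.93; 1.77, 313th).

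The smaller ratio in LIMA1 shRNA cells went with a higher starting level. Untreated, BBC3 was 1.74-fold higher with LIMA1 shRNA than with control shRNA (1.43 to 2.13; log2 0.80, below the size for a call but 236th of 12742). With nutlin-3a the lines were closer, at 1.16-fold (1.05 to 1.28). The response difference was -0.59 (-0.90 to -0.28). BBC3 overlaps the microRNA models MIR3190 and MIR3191 in GENCODE 29, and both were at 0 in all 4 libraries.

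PMAIP1, which encodes NOXA, a BH3-only protein that binds chiefly MCL-1, was the one member whose nutlin-3a difference pointed opposite ways in the lines with both counting intervals off 0. It stood at 251 normalized counts in untreated control shRNA cells, 708 in untreated LIMA1 shRNA cells, 367 in nutlin-3a control shRNA cells and 526 in nutlin-3a LIMA1 shRNA cells. Thus the highest value was in an untreated library, and both LIMA1 shRNA values lay above both control shRNA values.

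In control shRNA cells PMAIP1 was 1.46-fold higher with nutlin-3a (1.25 to 1.72; log2 0.55), and in LIMA1 shRNA cells the nutlin-3a level was 0.743 times the untreated one (0.661 to 0.835; log2 -0.43). Between the lines it was 2.83-fold higher with LIMA1 shRNA in untreated cells (2.45 to 3.27; log2 1.49, 51st of 12742) and 1.43-fold higher with nutlin-3a (1.25 to 1.64; 0.52). The response difference, -0.98 (-1.26 to -0.70), fell just short of the size for a call and was 108th from the lowest of 12742 genes. Differences of opposite sign in the lines were found for 14% of all measured genes, but only 34 genes (0.267%) had at least 0.4 in control shRNA cells and at most -0.4 in LIMA1 shRNA cells; the size of 0.4 was chosen after the PMAIP1 values were seen.

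The list of regulators of member transcription holds 5 genes of the ATF4 pathway, which is known to act on PMAIP1 transcription in the integrated stress response; DDIT3 and TRIB3 are named for their size and ATF3, ATF4 and ATF5 were chosen after their values were seen. DDIT3, which encodes CHOP, was at 124 and 680 normalized counts in untreated control and LIMA1 shRNA cells and at 172 and 242 with nutlin-3a. Its difference between the lines was 2.44 untreated (2.18 to 2.73) and 0.49 with nutlin-3a (0.20 to 0.79). TRIB3, a pseudokinase gene downstream of CHOP, was at 1683, 4467, 1403 and 1622 in the same order, and ATF3, a stress-induced transcription factor gene, at 95.2, 187, 139 and 120.1. ATF3 and DDIT3 shared the sign pattern of PMAIP1, with nutlin-3a differences of 0.54 and 0.46 in control and -0.64 and -1.48 in LIMA1 shRNA cells. TRIB3 was lower with nutlin-3a in both lines (-0.26 and -1.46). ATF4 itself was at 4580, 7783, 3430 and 4059, so its nutlin-3a difference was negative in both lines (-0.42 and -0.94). These 4 genes, like PMAIP1, had their highest value in untreated LIMA1 shRNA cells, as did 31.2% of all measured genes and 7 of the 19 measured regulators. ATF5, a related stress factor gene, had its lowest value there, at 583, beside 889.8 in untreated control shRNA cells and 642 and 591 with nutlin-3a. The part of this pathway in the PMAIP1 levels was not tested.

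**Figure D2:**
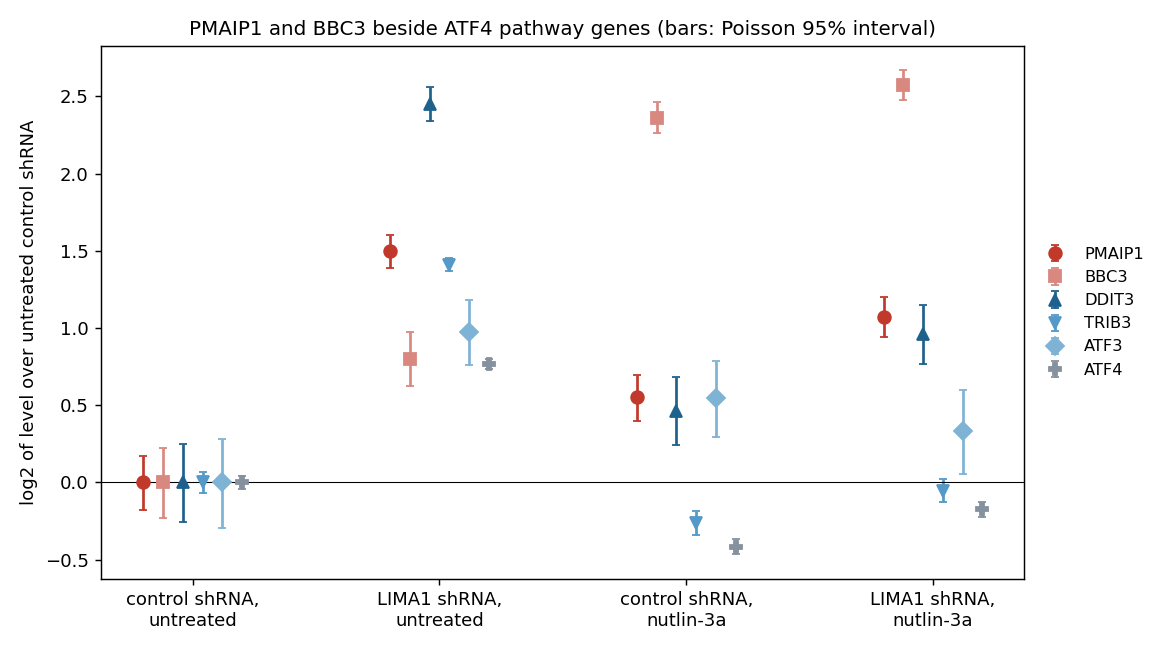
Level of PMAIP1, BBC3 and 4 ATF4 pathway genes in each library, as log2 of the normalized count over that in untreated control shRNA cells; points are single libraries and bars are exact Poisson 95% intervals of the fragment count. PMAIP1, ATF3, ATF4, DDIT3 and TRIB3 are highest in untreated LIMA1 shRNA cells, and BBC3 is highest in the nutlin-3a libraries; ATF5, which is lowest in untreated LIMA1 shRNA cells, is not drawn.

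The other BH3-only genes differed less. BAD, whose protein is held inactive by growth factor signalling, was at 622 and 594 normalized counts in untreated control and LIMA1 shRNA cells and at 467 and 510.1 after nutlin-3a. It was lower with nutlin-3a in both lines, at -0.41 on the log2 scale for control shRNA (-0.59 to -0.24) and -0.22 for LIMA1 shRNA (-0.40 to -0.04). BAD exons overlap those of GPR137 on the other strand, which stood at 493 to 522, and since the 1 value of BAD in nutlin-3a LIMA1 shRNA cells was not a whole number of fragments, reads of the pair may have been split.

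BID, which links death receptor caspases to mitochondria, was at 574, 605, 486 and 568 in the same order. Its nutlin-3a difference was -0.24 for control shRNA (-0.41 to -0.07) and -0.09 for LIMA1 shRNA, with an interval that spans 0 (-0.26 to 0.08). BCL2L11, which encodes BIM, an activator of BAX and BAK, was at 281, 246, 271 and 255, and all of its differences had intervals that span 0, the largest in size being -0.19 between the untreated lines (-0.44 to 0.06). BIK, a BH3-only gene of the endoplasmic reticulum, was not measured: it had 5, 5, 5 and 3 fragments, too few to tell the libraries apart.

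Of the prosurvival genes, BCL2L1 was higher with nutlin-3a in both lines and MCL1 differed by 0.13 or less. BCL2L1 was at 4993 and 4909 normalized counts in untreated control and LIMA1 shRNA cells, and at 8563 and 9562 with nutlin-3a. This made it 1.71-fold higher with the drug in control shRNA cells (1.66 to 1.78; log2 0.78) and 1.95-fold higher in LIMA1 shRNA cells (1.88 to 2.02; 0.96), both below the size for a call. Untreated, the lines differed at BCL2L1 by -0.02 (-0.08 to 0.03), and with nutlin-3a by 0.16 (0.12 to 0.20). Gene-level values do not separate BCL-XL from the shorter proapoptotic BCL-XS isoform of the same gene.

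MCL1 was at 4059 and 4659 in untreated control and LIMA1 shRNA cells, and at 4274 and 5087 after nutlin-3a. Its nutlin-3a differences were 0.07 (0.01 to 0.14) and 0.13 (0.07 to 0.19), while both LIMA1 shRNA libraries were above both control shRNA libraries, by 0.20 (0.14 to 0.26) untreated and 0.25 (0.19 to 0.31) with nutlin-3a. Of all measured genes, 21.8% and 18.5% lay above MCL1 in these line comparisons. FBXW7, a ubiquitin ligase subunit known to target MCL-1, was higher with nutlin-3a with differences of 1.23 (0.98 to 1.49) for control shRNA and 1.40 (1.16 to 1.65) for LIMA1 shRNA. It is the highest of 16 measured turnover and binding partners, whose medians were -0.10 and -0.13. Turnover of MCL-1 was not tested.

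The effector level relative to the prosurvival level was set out as ratios within each library. The ratio of BAX to BCL2L1 normalized counts was 0.255 and 0.289 in untreated control and LIMA1 shRNA cells, and 0.499 and 0.407 with nutlin-3a. The ratio of BAX to MCL1 was 0.313 and 0.304 untreated, and 0.999 and 0.765 with nutlin-3a. BAK1 over BCL2L1 lay between 0.049 and 0.059 in all 4 libraries, whereas BAK1 over MCL1 was 0.0699 and 0.0516 untreated, and 0.115 and 0.111 with nutlin-3a. Both effectors were thus higher relative to MCL1 in the nutlin-3a libraries. The ratio of PMAIP1 to MCL1 was 0.0618 in untreated control shRNA cells and 0.152 in untreated LIMA1 shRNA cells, then 0.0859 and 0.103 with nutlin-3a.

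**Figure D3:**
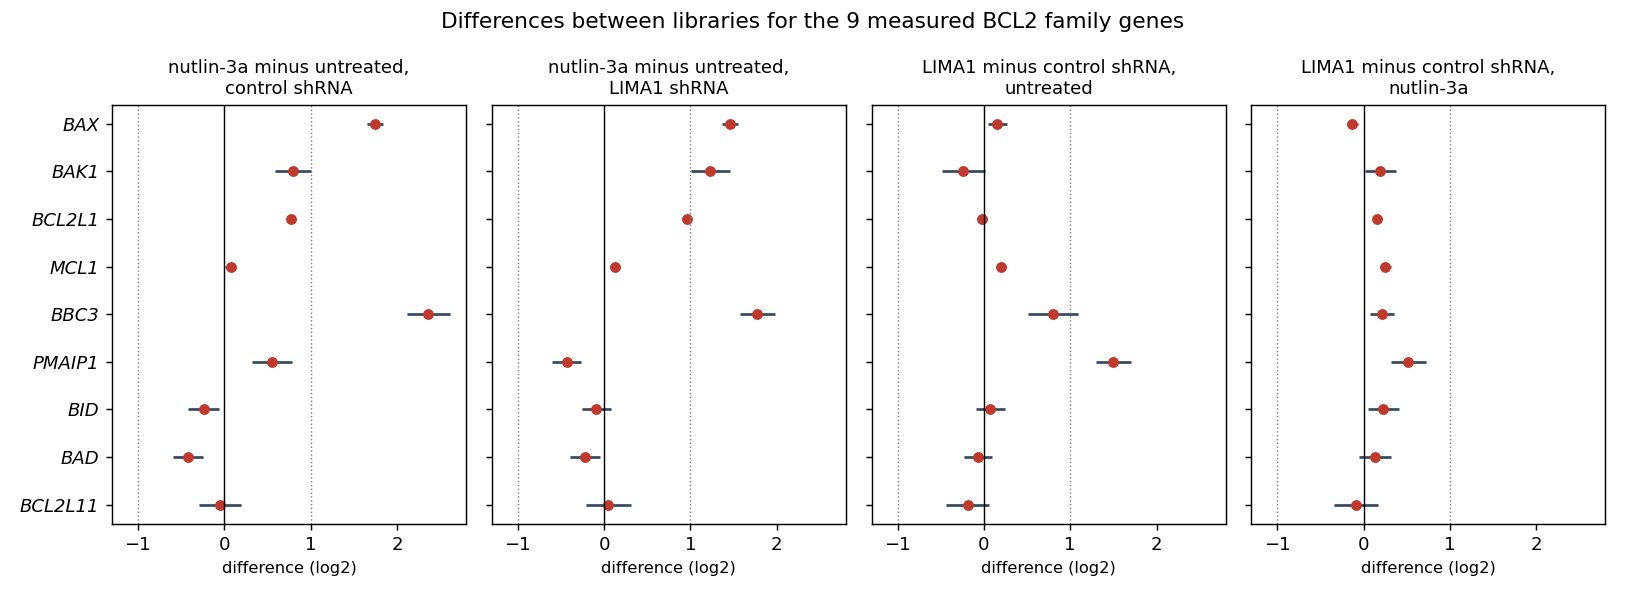
Differences in log2(normalized count + 1) for the 9 measured BCL2 family genes in 4 comparisons of 2 libraries each; points are differences, lines are exact 95% intervals of the fragment ratio (counting error only) and dotted lines mark the size of 1 for a call. BBC3 and BAX pass 1 in both nutlin-3a comparisons, BAK1 only in LIMA1 shRNA cells, and PMAIP1 only between untreated lines.

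In counts, 2 of the 9 measured members were higher by at least 1 with nutlin-3a in control shRNA cells, BAX and BBC3, where 5.54% of all measured genes were. In LIMA1 shRNA cells 3 were, BAX, BAK1 and BBC3, against 7.29% of all genes. In neither line was a member lower by at least 1, against 5.64% and 6.08% of all genes. The median difference of the 9 members was 0.55 in control and 0.13 in LIMA1 shRNA cells, beside -0.02 and -0.02 over all measured genes; the middle gene was PMAIP1 in control and MCL1 in LIMA1 shRNA cells. The members were chosen partly as known p53 targets, so their direction with nutlin-3a is a description.

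Between the lines, 1 member (PMAIP1) was higher by at least 1 with LIMA1 shRNA in untreated cells, against 1.04% of all genes, and 0 were lower, against 2.05%. With nutlin-3a 0 of 9 were higher and 0 lower, against 1.26% and 1.94%. The median member difference was 0.07 untreated and 0.19 with nutlin-3a, beside 0.02 and 0.03 over all genes, and 7 of 9 members lay above 0 with nutlin-3a, where 54.6% of all genes did. For the response difference (LIMA1 shRNA minus control shRNA), 0 members reached 1 or -1, against 1.27% and 0.816% of all genes. The values ran from -0.98 at PMAIP1, -0.59 at BBC3 and -0.29 at BAX to 0.43 at BAK1. PMAIP1, BBC3 and BAX thus had smaller ratios in LIMA1 shRNA cells. By contrast, 6 of the 9 members, BAK1 and BCL2L1 among them, lay above 0, where 52% of all genes did. So did 11 of 14 other measured p53 target genes tied to cell death. The median was 0.10 for the members and 0.01 for all genes. All comparisons between lines and between treatments draw on the same 4 libraries.

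Averaged over both lines, BAX, BAK1, BBC3 and BCL2L1 were higher with nutlin-3a and BAD was lower in an additive fit of drug and line over the 4 libraries (limma, Benjamini-Hochberg adjustment over 12742 genes, threshold 0.05). In the same fit 26.4% of all genes were higher and 30% lower. The averaged log2 differences were 1.60 for BAX (SE 0.08, limma adjusted p = 1.2e-06), 1.01 for BAK1 (SE 0.12, adjusted p = 0.00022), 2.06 for BBC3 (SE 0.14, adjusted p = 8.7e-06) and 0.87 for BCL2L1 (SE 0.06, adjusted p = 1.0e-05). BAD was at -0.32 (SE 0.09, limma adjusted p = 0.016) and did not pass without the mean-variance trend. PMAIP1, with responses of opposite sign, was at 0.06 (SE 0.19, limma adjusted p = 0.81). The size of the p-values rests on the trend. Without it the limma adjusted p was 0.0078 for BAX, 0.019 for BAK1, 0.011 for BBC3 and 0.013 for BCL2L1. Each of the 5 called genes had the same direction in both lines. This fit has 1 residual degree of freedom, from the response difference between the lines, so it cannot test that difference, and no library repeats a condition. Limma also draws the error of each gene toward that of other genes (median prior degrees of freedom 6.92 with the trend). The SE and p-values therefore rest mostly on the spread of other genes, not on repeats.

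Averaged over both treatments in this fit, PMAIP1 was higher with LIMA1 shRNA by 1.01 (SE 0.19, limma adjusted p = 0.012), BBC3 by 0.50 (SE 0.14, adjusted p = 0.043) and MCL1 by 0.22 (SE 0.05, adjusted p = 0.023), each in both treatments, and 0 members were lower. Of all genes 8.88% were higher and 7.2% lower, a split that became 5.83% and 8.15% with equal totals and 6.13% and 8.38% with the upper quartile. These calls were not stable: PMAIP1 alone passed after scaling to equal totals or to the upper quartile, and 0 members and 0 of all genes passed without the trend. Both libraries with an shRNA come from the same line, so the p-values do not cover variation between lines.

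**Figure D4:**
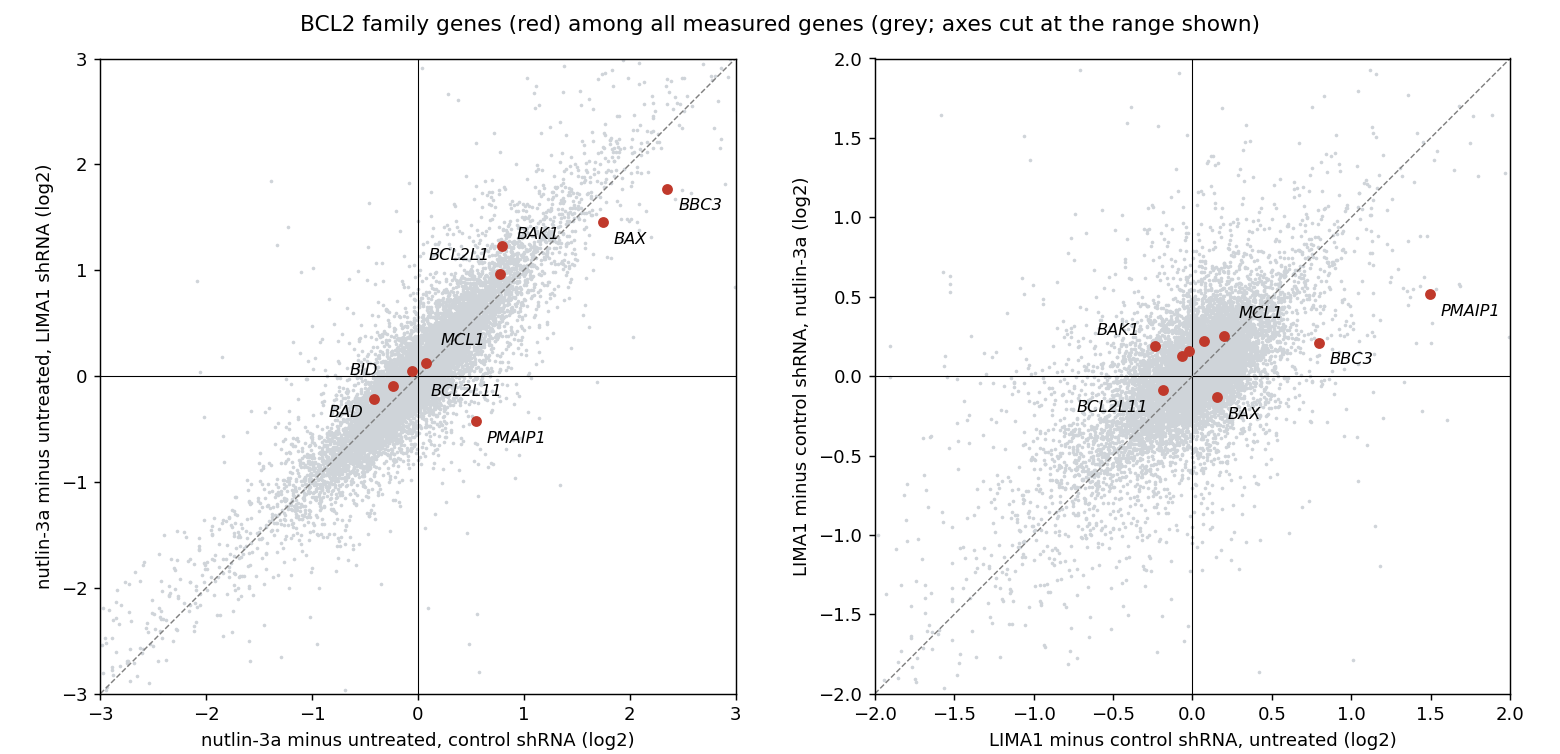
Each measured gene (grey, 12742) and the 9 measured BCL2 family genes (red) by the nutlin-3a difference in control (x) and LIMA1 shRNA cells (y), left, and by the LIMA1 shRNA difference in untreated (x) and nutlin-3a cells (y), right, all in log2; dashed lines mark equal values, axes are cut, and in the right panel BID, BAD and BCL2L1 near the centre are not named. BBC3, BAX and PMAIP1 lie below the dashed line on the left and PMAIP1 alone lies at the lower right.

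Compared per length, the order of the members depends on which transcript is assumed. With the longest coding transcript of each gene in the GENCODE 29 basic set, untreated control shRNA cells had 1913 normalized counts per kilobase for BCL2L1, 1032 for MCL1, 936 for BAX, 538 for BAD, 230.1 for BID, 129 for PMAIP1, 128 for BAK1, 84.1 for BBC3, 53.7 for BCL2L11 and 4.95 for BIK. PMAIP1 and BAK1 do not differ beyond counting error. With the median transcript length BAX came first at 2073, ahead of BCL2L1 at 1937. With nutlin-3a in control shRNA cells and the longest transcripts, BCL2L1 was at 3281 (3212 to 3351) and BAX at 3144 (3051 to 3239) per kilobase, and BBC3 at 433 (403 to 464) and BAD at 403 (368 to 441), so neither pair has separate counting intervals. With the median length BAX was above BCL2L1, at 6959 against 3321, and BAD was above BBC3, at 598 against 473.

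Of 18 other BCL2 family and related genes, 12 were measured. With nutlin-3a 0 of 12 were higher by at least 1 in control shRNA cells and 0 in LIMA1 shRNA cells, where 5.54% and 7.29% of all measured genes were, and 2 and 1 were lower, against 5.64% and 6.08%. BCL2L12, a family member also studied as a nuclear p53 inhibitor, was lower in both lines, at -1.45 (500 to 182 normalized counts) and -1.06 (509 to 243); some of its values were not whole fragments, so its reads may be shared with another gene. BCL2 itself was low, at 56.6 and 23.8 in untreated and nutlin-3a control shRNA cells (-1.21, -1.99 to -0.54) and at 36.6 and 28.9 in LIMA1 shRNA cells. Median differences were 0.04 and 0.08.

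Downstream of the mitochondria, 25 genes of the apoptosome and caspase list were measured, with medians of -0.13 and -0.06. In control shRNA cells 0 were higher and 1 lower, beside 5.54% and 5.64% of all genes, and in LIMA1 shRNA cells 2 were higher and 2 lower, beside 7.29% and 6.08%; these counts are near those shares. BIRC5, which encodes survivin and is a mitotic gene as well as an apoptosis inhibitor, had the lowest difference, from 2473 to 87.4 normalized counts in control shRNA cells (-4.81) and from 2499 to 51.5 in LIMA1 shRNA cells (-5.57). CASP2, an initiator caspase gene, was at -1.23 in LIMA1 shRNA cells, whereas CASP10, a death receptor caspase gene, was at 1.06 and CFLAR, a decoy of caspase-8 with shared reads, at 1.14. In control shRNA cells these genes pointed the same way, at -0.93, 0.84 and 0.67, under the size for a call. None of the 14 outer membrane partners, such as porins and import receptors, reached 1, with medians of -0.26 and -0.24, where between 5.54% and 7.29% of all genes were past 1 in each direction. In each line 3 of these 14 lay above 0, against 48.5% of all genes. Among 16 turnover and binding partners FBXW7 was the 1 gene higher by at least 1 in each line, near the 5.54% and 7.29% of all genes. In neither line was 1 of them lower by at least 1, against 5.64% and 6.08% of all genes.

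Other p53 target genes tied to cell death stood well apart from this. Of 14 measured, 9 were higher and 1 lower in each line, with medians of 1.78 and 1.76; of all genes 5.54% and 7.29% were higher and 5.64% and 6.08% lower. TP53I3, a redox enzyme gene, was higher by 3.81 and 4.25, the death receptor gene FAS by 3.71 and 3.96, and TP53INP1 by 3.49 and 3.94. SIVA1 was lower, at -1.18 and -1.42. This list was chosen with earlier results of these data known and holds known p53 targets, so it is no separate evidence of direction. Each of these named differences, taken as the extremes of the list, was larger in size in LIMA1 shRNA cells. The response difference lay above 0 for 11 of the 14 genes, where 52% of all genes did. TNFRSF10B (1.61 and 1.55) and PERP (0.79 and 0.77) had smaller differences in LIMA1 shRNA cells. Among the members, BBC3 and BAX had smaller differences there and BAK1 and BCL2L1 larger ones. No such difference was tested. Of 19 measured regulators of member transcription, MDM2, the p53 ligase gene, was higher (3.90 and 4.19) and E2F1, a cell-cycle transcription factor gene, lower (-4.45 and -4.69) in both lines; DDIT3 and TRIB3 were at -1.48 and -1.46 in LIMA1 shRNA cells and at 0.46 and -0.26 in control shRNA cells.

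**Figure D5:**
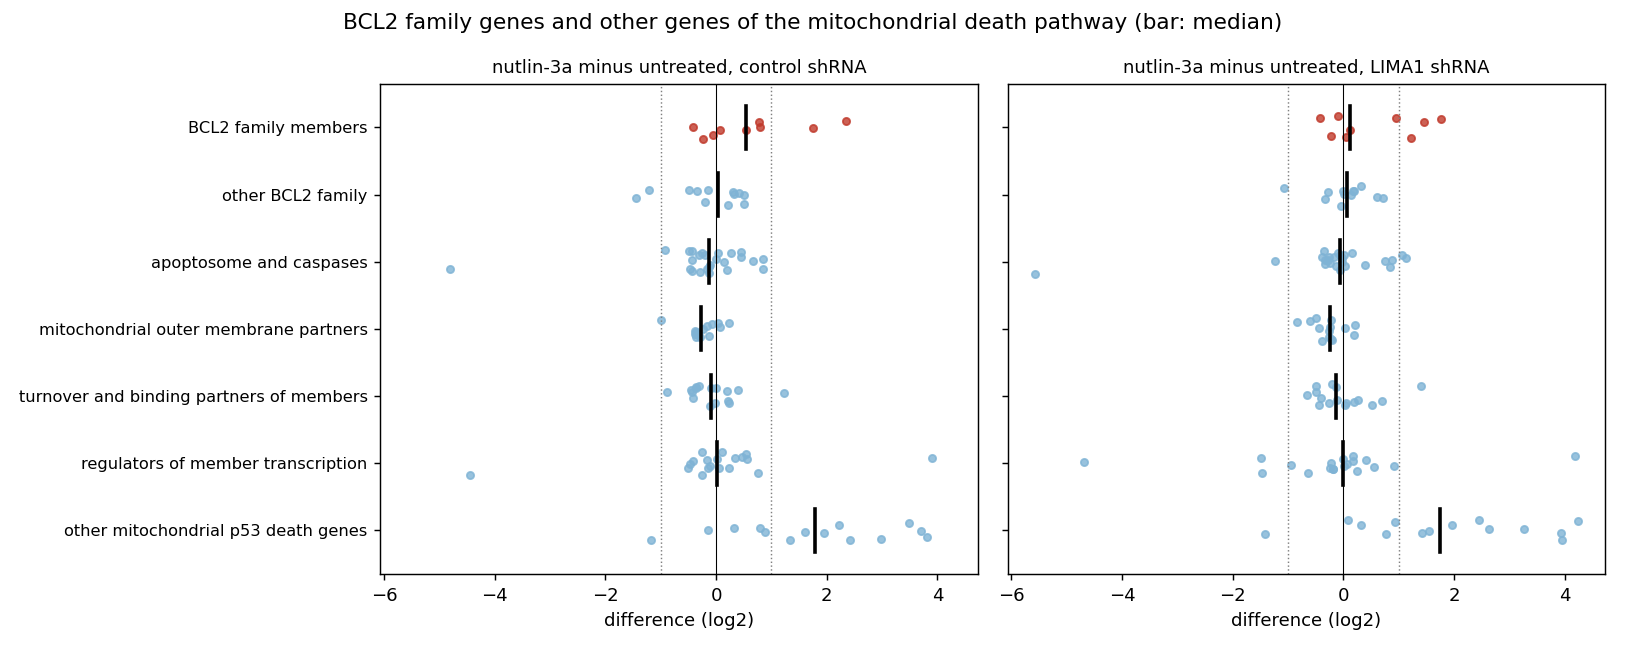
Nutlin-3a minus untreated differences (log2) of measured genes in 7 lists, in control (left) and LIMA1 shRNA cells (right); each point is a gene, black bars are medians and dotted lines mark 1 and -1. The other p53 death genes centre on 1.78 and 1.76, and the BCL2 family members on 0.55 and 0.13.

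Over the 4 libraries, the genes whose centred log2 values lay nearest to each called member were named from 8831 genes with a mean of at least 150 and whole fragments, by Euclidean distance. Nearest to BAX were LOC388282, CCDC90B and CYP4F3 (distances of 0.10, 0.11 and 0.16), and nearest to BAK1 were DCAKD, GLTP and TRIM5 (0.06, 0.08 and 0.08). BBC3 had PLCL2, ZNF79 and GPR115 (0.31, 0.36 and 0.38). PMAIP1 had SNTB1, APOL6 and MAP2K6 (0.30, 0.37 and 0.41), of which SNTB1 was at 260.2 and 638 normalized counts in untreated control and LIMA1 shRNA cells, and at 396 and 632 after nutlin-3a. BBC3 and PMAIP1 thus had no neighbour as close as those of BAX and BAK1.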

How the data were processed

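RNA sequencing values of 4 A549 libraries, 1 per group, were analysed. Per the submitters' processing notes, which give no role or order, Cuffnorm 2.2.1, Bowtie2 2.0.12, bcl2fastq 1.8.3 and the hg19 build were used; the annotation and strand protocol are not given in the sources used here. Each deposited table holds 1 signal value per gene. Most low values are whole multiples of 1 step per library, so they were read as fragments divided by a size factor. Between 85.5% and 86.3% of values under 1000 fragments lay within 0.1 of a whole number, too few for a count model. All 4 values were whole for 9 of the 10 members.

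Samples were grouped by title. Differences used a pseudocount of 1, a mean of at least 30 and a size of 1. Intervals of 2-library ratios are Clopper-Pearson; those of the response difference are Wald. Intervals cover counting error only and take fragments as independent. Reads carry no molecular identifiers, so copies from amplification could not be told from separate fragments. With 1 library per group, single comparisons and the response difference have no residual degrees of freedom and were not tested. An additive fit of drug and line (limma 3.58.1 with a mean-variance trend, R 4.3.3) was added after seeing the data. The calling step and this fit were tested on simulated data. The simulated data held no difference between the lines and no response difference, so they do not check the p-values given here.

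Members, lists and comparisons were chosen with earlier results of these data known, and motifs after the sequences were seen. The rule for names took all members, up to 3 highest and 3 lowest genes past 1 per list and comparison, and the 3 nearest profiles. Genes named outside it (ATF3, ATF4, ATF5, TNFRSF10B, PERP, GPR137 and the microRNA models) were chosen after their values were seen. Overlaps and lengths come from GENCODE 29 on GRCh38. Python 3.11.15, numpy 2.4.6, pandas 2.3.3, scipy 1.17.1 and matplotlib 3.10.9 were used. Alternatives were other pseudocounts, scalings, filters and sizes, and, added after seeing the data, leaving out genes with values off whole fragments.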

Additional observations from a re-analysis of the deposited data

Results flagged for a closer look

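PMAIP1 was higher with nutlin-3a in control shRNA cells (0.55) and lower in LIMA1 shRNA cells (-0.43), and both counting intervals exclude 0. BAX was higher with LIMA1 shRNA in untreated cells (0.16) and lower with nutlin-3a (-0.13), again with both intervals off 0. For 4 further results of opposite sign at least 1 interval spans 0. The LIMA1 shRNA differences in untreated and nutlin-3a cells were -0.24 and 0.19 at BAK1, -0.067 and 0.13 at BAD, and -0.024 and 0.16 at BCL2L1. The nutlin-3a differences in control and LIMA1 shRNA cells were -0.052 and 0.050 at BCL2L11. With 1 library per group, none of these differences between lines or treatments was tested. Opposite signs were found for 14% of all 12742 measured genes in the nutlin-3a comparisons and for 27.8% in the LIMA1 shRNA comparisons.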

How the results depend on the processing

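The counts of members past the size depended on that size and on no other setting tried by more than 1.5 times. At a size of 2, 1 member (BBC3) was left for nutlin-3a in control shRNA cells, 0 in LIMA1 shRNA cells and 0 for untreated LIMA1 against control shRNA, where 1.53%, 1.93% and 0.212% of all genes were higher. At a size of 0.5, there were 5 for nutlin-3a in control shRNA cells (BAK1, PMAIP1 and BCL2L1 added; 16.3% of all genes were higher), 2 for untreated LIMA1 against control shRNA (BBC3 added; 4.96%), 1 with nutlin-3a (PMAIP1; 5.81%), and 2 lower for the response difference (BBC3 and PMAIP1; 4.05%). Upper-quartile scaling added BCL2L1 in LIMA1 shRNA cells, making 4. Of 225 single member values under other pseudocounts and scalings, 221 stayed within their counting interval and 4 moved outside it; the sign changed for BCL2L11 with nutlin-3a in control shRNA cells (0.0067 after upper-quartile scaling). Shares of all genes past 1 were smaller with a pseudocount of 30, such as 0.447% higher for untreated LIMA1 against control shRNA. Pairing the treatments by line is the additive fit, whose 5 nutlin-3a calls became 4 (BAD lost) without the trend and 6 (MCL1 added) after upper-quartile scaling. Its 3 line calls became 1 with equal totals, 1 with the upper quartile, 2 with the median of ratios (BBC3 lost; 7.43% of all genes were higher) and 0 without the trend, where 2 members and 3120 of all genes had an unadjusted p under 0.05. Leaving out a library leaves this fit no residual degree of freedom. Depth limits BIK, with 3 to 5 fragments, and counting intervals say nothing of variation between cultures.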
